A study of Mus musculus with 6 samples.

Results

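The livers compared here came from C57BL/6J mice at week 10 of feeding, 1 array for the high-fat diet and 1 for the control diet. They are 2 of the 6 arrays of a series that set the same diets against each other at weeks 2, 4 and 10 to follow the hepatic transcriptional response, with enzymes of lipid metabolism as its interest. All mice were of 1 inbred strain, which gains weight and stores liver fat on fat-rich food; the groups carry no allele or drug, and the diet is the one labelled difference. The members were taken by group label, and both arrays are of the design with 22690 probe sets, which also holds the arrays of week 2. The design text calls the richer diet HFC without spelling it out, and the labels give neither the composition of the diets, the age and sex of the mice, the hour of collection, nor if RNA of several mice was pooled.

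With 1 array a side there is no spread between mice, so each difference below is a size that compares these arrays and not the diets, and no p-value is given. The other readings that bear on a size are the further probe sets of the same gene on the same arrays, and the levels on the week 2 arrays of the same table. In whole liver, a change in the number of cells of a type and a change in RNA per cell cannot be told apart.

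Liver makes fatty acids from acetyl units in de novo lipogenesis, a programme switched on after feeding by insulin through SREBP-1c (encoded by Srebf1) and by glucose through ChREBP (encoded by Mlxipl). It joins them to glycerol as triglyceride, which is stored in droplets or exported in lipoproteins. Cholesterol synthesis runs under the related factor SREBP-2, which INSIG proteins hold back when sterol is plentiful. In the fasted state PPAR-alpha drives fatty acid oxidation and ketone production, and gluconeogenic enzymes release glucose.

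Signals are the deposited linear intensities after centring each array on its median, and differences are log2 of high-fat over control at week 10, where 1 means 2-fold. Signals under 155.3 were set to that floor, and a difference with 1 array at the floor is a bound, written "at least". The probe set that was brightest on average stood for a gene, and the 8846 genes counted had signals over the floor in 3 or more of the 6 arrays. Where a pair of signals is given for a week, the control array comes first.

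Liver markers were bright on both arrays. Albumin (Alb) had week 10 signals of 94959 and 66733, and all 11 tested hepatocyte markers were lower on the high-fat array, with a median difference of -0.48. The control array was the highest of the 4 arrays of the table for 10 of these 11 (25.9% of all genes). That array also stood apart on spiked-in controls, with a bioD signal of 25015 against 7427 on the high-fat array and 3909 and 4581 at week 2. Among the 100 brightest genes of all, 83 were lower on the high-fat array, with a median difference of -0.30, and the control array of week 10 was above that of week 2 by a median of 0.53. Measured against the control array of week 2 in place of week 10, the hepatocyte median was 0.38, so its sign turned. Most groups below are therefore also given against that array, a choice made after the data were seen, in which diet and time cannot be told apart. The beta-actin 3'/5' ratio, a sign of RNA integrity, was 1.73 for the control array and 1.17 for the high-fat array. The high-fat array was also the one array of its table with over 1 decimal in most values (96.8% against 0% on the other 3), and the part of these array differences in the results was not tested.

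Of 8846 genes, 343 (3.88%) were higher by 2-fold or more on the high-fat array and 347 (3.92%) were lower by as much. The median difference was 0.02, with 51.6% of genes higher and 47.2% lower by any amount. At 1.5-fold these counts were 1197 (13.5%) and 1126 (12.7%), and at 4-fold 19 and 16. The diet comparison of week 2 had 107 genes (1.21%) past 2-fold upward and 140 (1.58%) downward, and that of week 4 had 62 (0.701%) and 80 (0.904%). The week 4 arrays are of another design. Pairs of arrays on the same diet gave counts of the same order, and in these pairs week, mice and array handling cannot be told apart. On the control diet, 262 genes (2.96%) were past 2-fold upward from week 2 to week 10 and 205 (2.32%) downward. On the high-fat diet these counts were 496 (5.61%) and 404 (4.57%). Of the 343 higher genes, 152 differed in the same direction and 186 in the opposite direction at week 2. Among the 347 lower genes, 136 differed in the same direction and 205 in the opposite direction there.

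A second probe set was measured for 249 of the genes past 2-fold, and it pointed the same way for 160 (64.3%), against 56.4% of 3257 such genes of any size. It was at least 2-fold in that direction for 14.1%, against 6.26% of the genes of any size. Among the brightest 2212 genes the same direction was seen for 42 of 53 (79.2%), and in the 3 dimmer groups of like size for 59.1% to 62.1%. The share for genes of any size was not computed within these brightness groups, so these shares have no base beside them. All further probe sets were at least 1.5-fold in the same direction for 31 of 109 higher genes (28.4%) and 22 of 142 lower genes (15.5%). Over all 3283 tested genes with a further probe set the share was 13.6%, near that of the lower genes. The share at 1.5-fold or more in the same direction on the second probe set was 28.5%, against 18.9% of the genes of any size. Most single sizes past 2-fold were therefore not met by a like size on a second probe set.

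**Figure D1:**
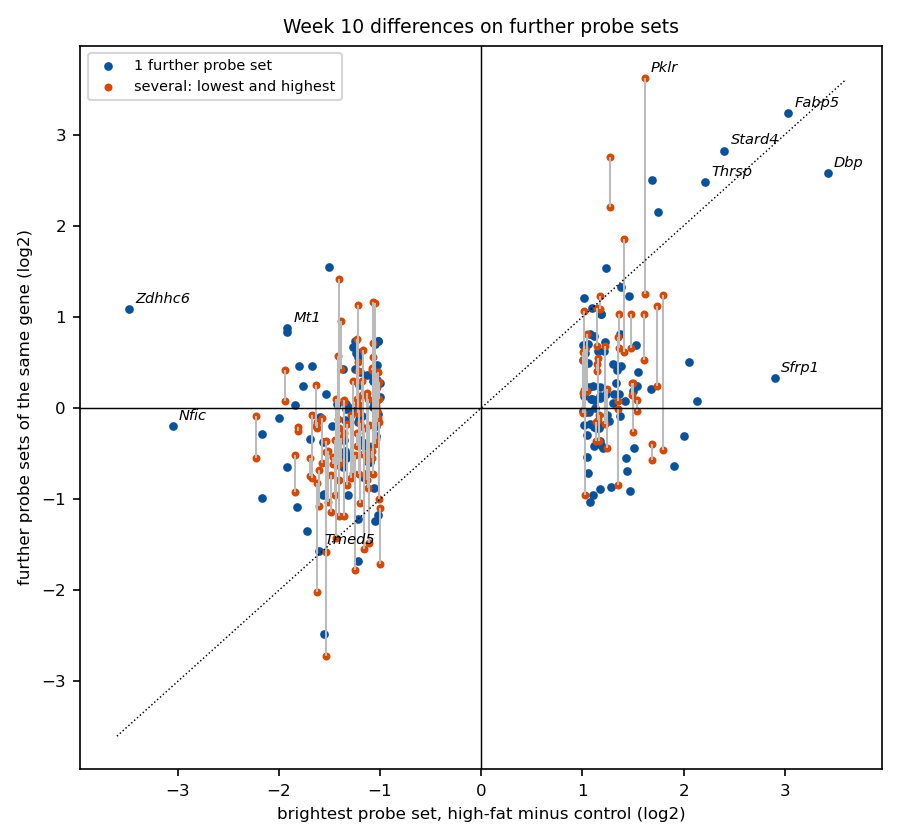
Week 10 differences (log2, high-fat minus control) of the genes past 2-fold on the brightest probe set (x axis) against their further probe sets (y axis). Blue points have 1 further probe set, orange points joined by a line give the lowest and highest of several, and the dotted line marks equal values. Fabp5 lies at 3.03 and 3.24, while Zdhhc6, a bound, lies below -3 on the x axis and at 1.08 on the y axis.

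Genes of the lipogenic programme were mostly higher on the high-fat array. Of 25 tested genes of fatty acid and triglyceride synthesis, 21 were higher and 4 lower, 16 were at least 1.5-fold higher (13.5% of all genes) and 1 at least 1.5-fold lower, and 9 were at least 2-fold higher (3.88% of all genes). The median difference was 0.75, against 0.02 over all genes. The high-fat array of week 10 was the highest of the 4 arrays of the table for 20 of the 25 (33.8% of all genes). The list median was 0.98 against the control array of week 2, and -0.01 and 0.07 in the diet comparisons of weeks 2 and 4.

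Thrsp (Spot 14), a nuclear protein that tracks lipogenic activity, had signals of 1999 and 1715 at week 2 against 3485 and 16151 at week 10. The last of the 4 stands apart, the difference was 2.21, and a further probe set gave 2.48. Fasn, the fatty acid synthase, had signals of 1017 and 914 at week 2 against 1707 and 5116 at week 10, a difference of 1.58. Elovl6, which elongates palmitate, had 1061 and 934 at week 2 against 766 and 2572 at week 10, a difference of 1.75 with 2.15 on a further probe set. Acly, which makes cytosolic acetyl-CoA from citrate, went from 2154 to 5709 between the week 10 arrays (1.41, with 0.61 and 1.86 on further probe sets). In all these genes the high-fat array of week 10 was the highest of the 4.

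Me1, the malic enzyme that supplies NADPH, had signals of 4329 and 2093 at week 2 against 4502 and 9635 at week 10, a difference of 1.10 with 1.09 on a further probe set. The diet difference at week 2 was -1.05, so the direction was opposite there. Acacb, the mitochondrial acetyl-CoA carboxylase whose product blocks fatty acid entry, had signals of 656 and 436 at week 2 against 278 and 1151 at week 10 (2.05). Here the control array was also the lowest of the 4. Pnpla3, a lipid-remodelling enzyme that follows SREBP-1c, had 216 and 689 (1.67).

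Both lipogenic transcription factors were higher. Srebf1 had signals of 848 and 1028 at week 2 against 2384 and 5043 at week 10 (1.08). Mlxipl had 1939 and 2282 at week 2 against 1758 and 4121 at week 10 (1.23). Pklr, the liver pyruvate kinase and a known ChREBP target, had 861 and 942 at week 2 against 1197 and 3665 at week 10, with a difference of 1.61 and of 1.25 and 3.62 on further probe sets.

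Other lipogenic genes depended on the probe set. Scd1, the stearoyl-CoA desaturase, had 45102 and 48185 on its brightest probe set (0.10), with 2.36 on a further one. Dgat2, which completes triglyceride, gave 0.26 and 1.25, and Gpam, which starts glycerolipid synthesis, gave -0.29 and 0.999. For these 3 genes the dimmer probe set had the larger difference. Acaca, the cytosolic acetyl-CoA carboxylase, had 296 and 372 (0.33), and Elovl3, an elongase with higher levels in male liver, was the lowest of the list at -0.71. Against the control array of week 2 the signs of Elovl3 (0.52) and of the brightest probe set of Gpam (0.23) turned.

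**Figure D2:**
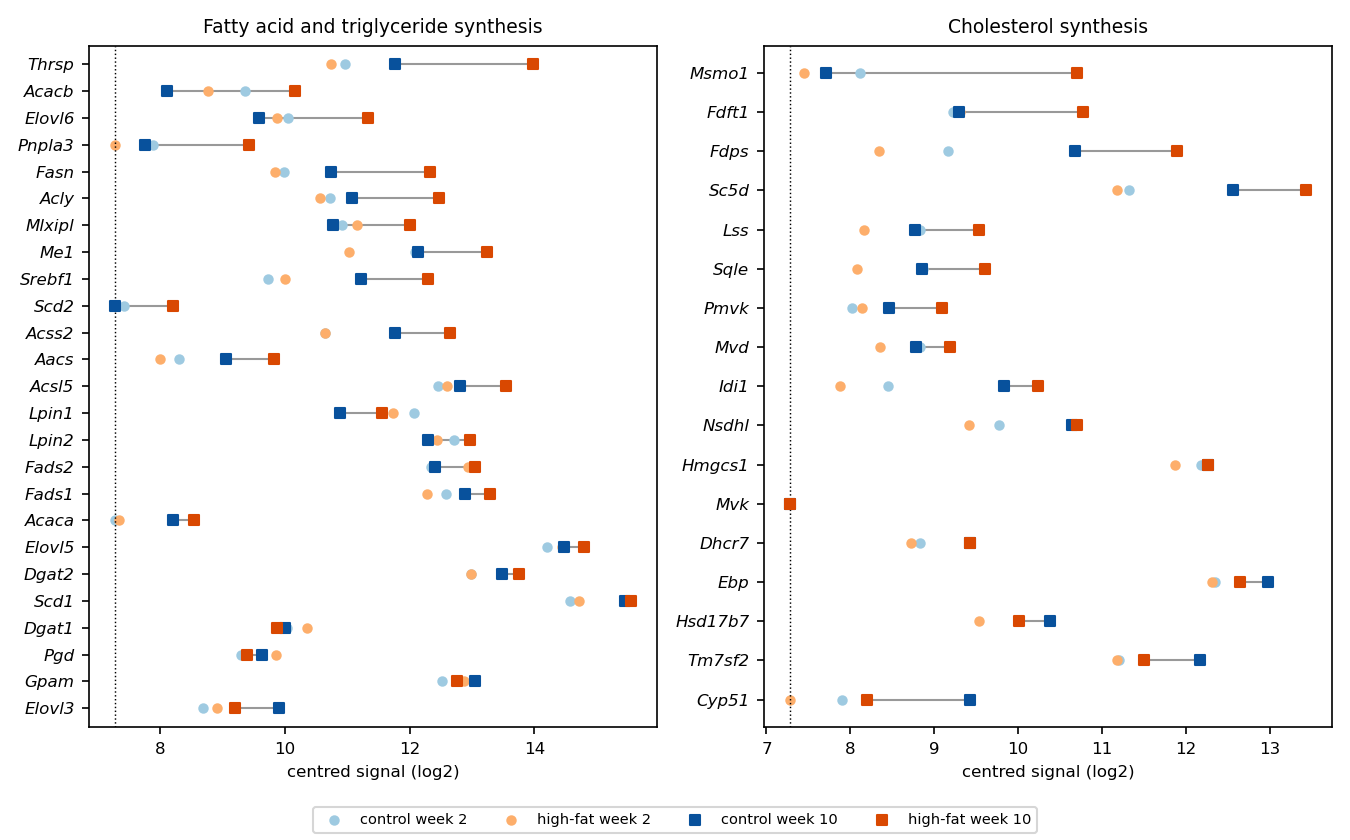
Centred signal (log2, x axis) of each tested gene of fatty acid and triglyceride synthesis (left) and cholesterol synthesis (right) on the 4 arrays of the smaller design, 1 point an array, with a line joining the week 10 arrays and a dotted line at the floor. The high-fat array of week 10 is the rightmost point for 20 of 25 and 11 of 17 genes (33.8% of all genes).

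The promoters of a pair of lipogenic genes and a sterol gene are shown because the CCAAT box, the site of the factor NF-Y that acts beside SREBPs, recurs in them; these 3 were picked after their values and matches were seen. Each run is a RefSeq promoter window of 300 bases around the start site, 5′ to 3′ along the gene in GRCm38.p6, with CCAAT, or ATTGG where it lies on the other strand, in capitals. Fasn is at chr11:120824498-120824797 on the minus strand, Thrsp at chr7:97417501-97417800 on the minus strand, and Msmo1 at chr8:64733529-64733828 on the minus strand.
Fasn: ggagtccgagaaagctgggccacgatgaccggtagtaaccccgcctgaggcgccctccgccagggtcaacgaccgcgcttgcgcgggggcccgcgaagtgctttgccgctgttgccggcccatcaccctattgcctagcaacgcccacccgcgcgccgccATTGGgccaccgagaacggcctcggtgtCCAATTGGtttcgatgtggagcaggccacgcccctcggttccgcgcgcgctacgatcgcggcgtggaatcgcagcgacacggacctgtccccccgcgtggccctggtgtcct
Thrsp: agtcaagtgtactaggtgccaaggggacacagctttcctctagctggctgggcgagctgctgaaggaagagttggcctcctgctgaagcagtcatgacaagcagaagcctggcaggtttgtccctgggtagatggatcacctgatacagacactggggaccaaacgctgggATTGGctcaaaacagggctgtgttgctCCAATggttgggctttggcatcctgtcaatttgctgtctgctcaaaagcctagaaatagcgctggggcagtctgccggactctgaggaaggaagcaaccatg
Msmo1: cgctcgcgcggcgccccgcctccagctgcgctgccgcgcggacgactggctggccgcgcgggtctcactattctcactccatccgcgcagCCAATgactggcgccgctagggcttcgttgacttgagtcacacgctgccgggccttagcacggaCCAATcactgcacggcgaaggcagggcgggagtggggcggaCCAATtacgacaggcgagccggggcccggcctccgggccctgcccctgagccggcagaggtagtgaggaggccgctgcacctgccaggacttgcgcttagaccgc
Counted from the start site to the first base of each box, the boxes lie at -90, -62 and -59 in Fasn, the last pair overlapping, at -79 and -52 in Thrsp, and at -160, -96 and -55 in Msmo1. CCAAT on either strand was held by 14 of 19 matched genes of the fatty acid list, 14 of 14 of the cholesterol list and 12 of 14 of the clock list, against 42.2% of the 7182 tested genes with a window and 41.1% of 27025 genes in all. The E box CACGTG was held by 3 of 19, 3 of 14 and 3 of 14, against 11.5% of tested and 8.09% of all genes, and a sterol element written TCACNCCAC by 1 of 19, 1 of 14 and 0 of 14, against 1.57% and 1.44%. A gene with several start sites counted if any window matched, the 3 lists and the sterol letters were set after the data were seen, and such matches describe letters, not binding.

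Cholesterol synthesis was mixed within the list. Of 17 tested genes, 11 were higher and 5 lower, 7 were past 1.5-fold upward (13.5% of all genes) and 2 downward (12.7% of all genes), with a median of 0.41 (0.70 against the control array of week 2). Msmo1, a sterol C4-methyl oxidase, had signals of 277 and 175 at week 2 against 209.8 and 1664 at week 10, a difference of 2.99. Fdft1, the squalene synthase, had 598 and 634 at week 2 against 629 and 1753 at week 10 (1.48, with 0.66 and 1.03 on further probe sets). Fdps, the farnesyl diphosphate synthase, had 1644 and 3806 at week 10 (1.21), and Sc5d, a sterol desaturase, 6061 and 11077 (0.87, with 1.96 on a further probe set).

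Other steps gave smaller or mixed values. Hmgcs1, which makes HMG-CoA, had 4910 and 4941 (0.01, with -0.19 to 0.73 on further probe sets), and Sqle, the squalene epoxidase, had 462 and 782 (0.76). Cyp51, the lanosterol demethylase, gave -1.23 on its brightest and 0.61 on its further probe set, and its sign also turned against the control array of week 2 (0.30). At week 4 the list median was -1.57, with Msmo1 at -2.22, Fdft1 at -1.63 and Fdps at -1.57, so these genes were lower with the high-fat diet there.

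Sterol regulators were among the differences that further probe sets carried. Stard4, a cytosolic cholesterol carrier and SREBP-2 target, had signals of 593 and 723 at week 2 against 389 and 2054 at week 10, a difference of 2.40 with 2.82 on a further probe set. Insig2, the INSIG form that insulin lowers in liver, had 14203 and 11413 at week 2 against 10274 and 5119 at week 10, a difference of -1.01 with -1.71 and -1.09 on further probe sets. Srebf2, which encodes SREBP-2, had 372 and 700.2 (0.91), below its week 2 signals of 1016 and 846 on both arrays. Over the 14 genes of sterol sensing, uptake and efflux the median was 0.27, and it turned to -0.06 against the control array of week 2.

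Among genes measured on both week 10 arrays, Fabp5 had the largest difference upward. It encodes the epidermal fatty acid binding protein, and its signals were 560.1 and 1016 at week 2 against 744 and 6081 at week 10. The difference was 3.03, a further probe set gave 3.24, and the diet differences at weeks 2 and 4 were 0.86 and 1.61. Fabp2, the intestinal form, had 4959 and 8373 at week 2 against 3516 and 8728 at week 10 (1.31). Fabp1, the main liver form, had 71118 and 63491 at week 10 (-0.16, with 0.40 on a further probe set).

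Droplet genes went both ways. Of 19 tested genes of droplets, lipases and uptake, 5 were past 1.5-fold upward (13.5% of all genes) and 2 downward (12.7% of all genes), with a median of 0.27. With the floor at the 60th percentile the median was -0.013. Plin3, a coat protein of small droplets, had 504 and 1116 at week 2 against 621 and 1559 at week 10 (1.33). Fitm1, which partitions triglyceride into droplets, had 520.0 and 1549 (1.58), and Mogat1, a monoacylglycerol acyltransferase that is high in fatty liver, 266 and 689 (1.37). Cav1, the main protein of caveolae, was at the floor on the control array and at 510.3 on the high-fat array, a difference of at least 1.72. Cd36, a fatty acid transporter, had 3079 and 4319 (0.49, with 0.86 and 0.88 on further probe sets).

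In contrast, Plin5, the perilipin of oxidative cells, had 2594 and 2879 at week 2 against 2770 and 903 at week 10, a difference of -1.62. G0s2, an inhibitor of adipose triglyceride lipase, had 8130 and 3622 (-1.17), and Plin2, the main perilipin of hepatocytes, 28346 and 21172 (-0.42). The high-fat array of week 10 was the lowest of the 4 for Plin5 and G0s2 but not for Plin2.

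Fatty acid oxidation enzymes as a list lay near 0. Of 21 tested mitochondrial and ketogenic genes, 10 were higher and 11 lower, 2 were past 1.5-fold in each direction (13.5% of all genes upward and 12.7% downward), and the median was -0.10 (0.01 against the control array of week 2). Cpt1a, the gate of mitochondrial fatty acid entry, had 8595 and 7574 (-0.18, with -0.69 and -0.10 on further probe sets). The pair past 2-fold were fasting-response genes. Fgf21, a hormone that PPAR-alpha induces on fasting, had 750.2 and 589.8 at week 2 and 814 at week 10 on the control diet, and was at the floor on the high-fat array, at least 5.24-fold lower. Pdk4, which blocks pyruvate oxidation, had 1371 and 679 at week 2 against 1666 and 435 at week 10 (-1.94). Ppara itself had 2891 and 4049 at week 2 against 5193 and 3583 at week 10 (-0.54). Its sign turned against the control array of week 2 (0.31).

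Peroxisomal and microsomal oxidation was lower on more genes. Of 17 tested, 4 were higher and 13 lower, and 8 were at least 1.5-fold lower (12.7% of all genes) against 1 at least 1.5-fold higher, with a median of -0.19. Acot1, a cytosolic acyl-CoA thioesterase induced by PPAR-alpha, had 4818 and 5248 at week 2 against 6341 and 1522 at week 10 (-2.06). Ehhadh, the peroxisomal bifunctional enzyme, had 17027 and 9581 (-0.83), and Cyp4a14, an omega hydroxylase, 42144 and 23187 (-0.86). The control array was the highest of the 4 for 10 of the 17 genes (25.9% of all genes). The median was 0.00 against the control array of week 2.

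Lipoprotein genes were mostly lower by small amounts, and the same held for hepatocyte markers. Of 18 tested, 14 were lower and 4 higher, with a median of -0.40, which was -0.17 after a loess correction for brightness and 0.13 against the control array of week 2. It was -0.049 with quantile normalization and 0.48 on the second probe sets of 5 genes. Apob, the structural protein of exported lipoproteins, was the exception in size, with signals of 30253 and 27107 at week 2 against 28672 and 8410 at week 10 (-1.77). The difference was -1.85 against the control array of week 2. Mttp, which loads lipid onto APOB, had 5358 and 4414 (-0.28, with 0.48 on a further probe set). Apoa4, an apolipoprotein that follows liver fat, had 7567 and 17793 at week 2 against 3023 and 9723 at week 10 (1.69, with 2.50 on a further probe set). Pltp, the phospholipid transfer protein, had 4582 and 8003 (0.80, with 0.97 on a further probe set).

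In bile acid metabolism, 21 genes had a median of -0.09, with 1 gene past 2-fold in each direction (3.88% of all genes upward and 3.92% downward). Against the control array of week 2 the median was 0.080. Cyp8b1, the 12-alpha-hydroxylase that sets the share of cholic acid, had 9757 and 9733 at week 2 against 8144 and 3162 at week 10 (-1.37). Nr0b2 (SHP), the repressor of bile acid synthesis, had 1932 and 1336 at week 2 against 1291 and 2735 at week 10 (1.08). Cyp7a1, which starts the classic route from cholesterol to bile acids, had 3838 and 2396 (-0.68, with -0.23 on a further probe set), and Abcb11, the bile salt export pump, 4552 and 7334 (0.69).

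Genes of glucose metabolism differed in both directions. G6pc, the glucose-releasing phosphatase, had 12344 and 8449 at week 2 against 19907 and 7264 at week 10 (-1.45). Pck1, the first gluconeogenic enzyme, had 14153 and 12185 at week 2 against 21954 and 10935 at week 10 (-1.01). Gckr, which holds glucokinase in the nucleus, had 2334 and 4711 (1.01). Hk2, a hexokinase of non-hepatic tissues, had 402 on the control and was at the floor on the high-fat array, at least 2.59-fold lower. Over the 17 tested genes, 11 were higher and 6 lower, with a median of 0.26.

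**Figure D3:**
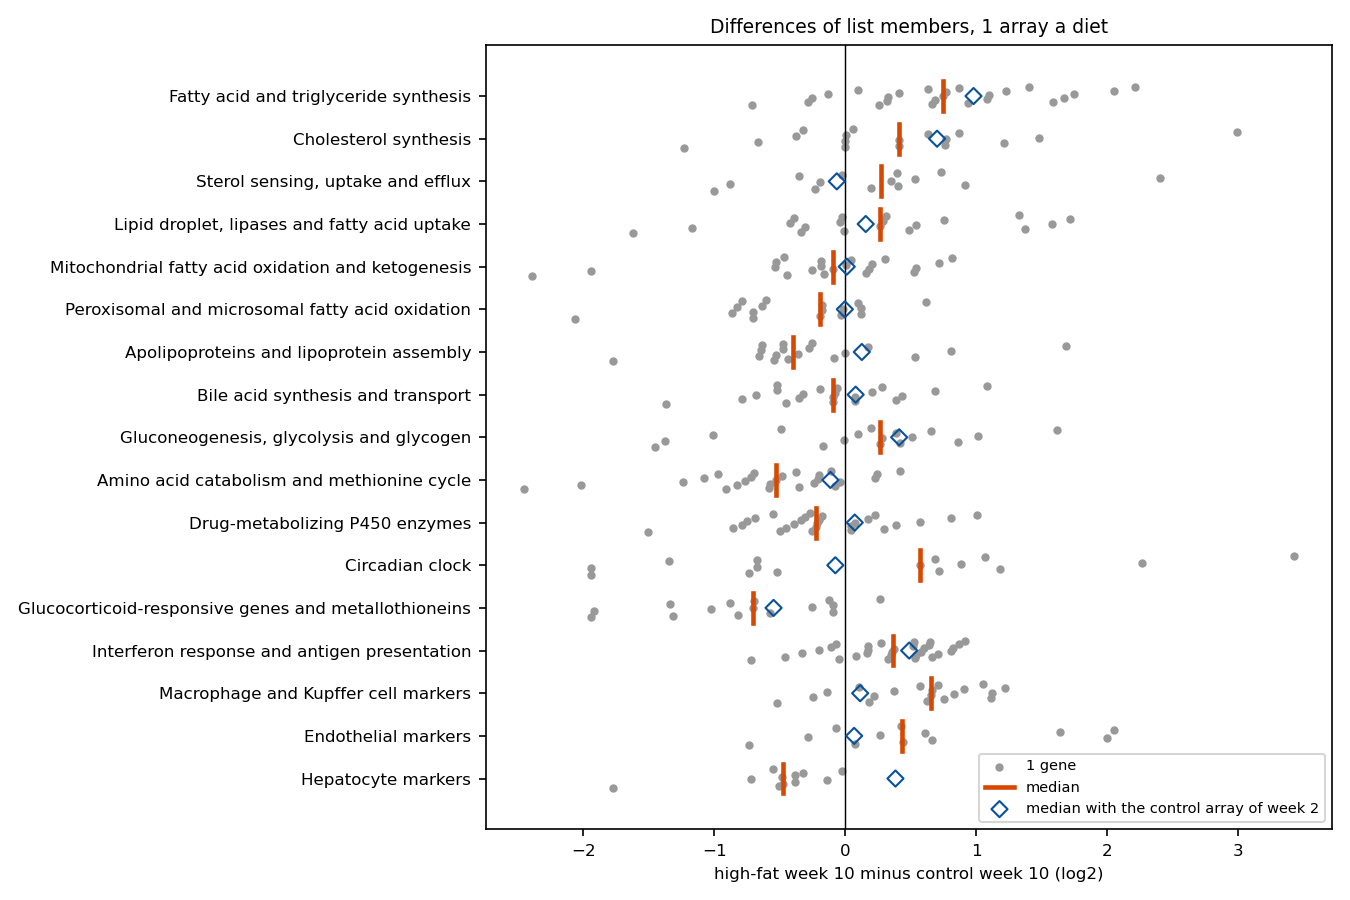
Week 10 differences (log2, x axis) of the tested members of 17 gene lists, picked after their values were seen, 1 gray point a gene, with the list median as an orange bar. Open diamonds give the median when the control array of week 2 replaces that of week 10. The fatty acid synthesis median is 0.75 and its diamond 0.98, while the hepatocyte median is -0.48 and its diamond 0.38.

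Most amino acid enzymes were lower on their brightest probe sets. Of 25 tested, 22 were lower and 3 higher, 11 were at least 1.5-fold lower (12.7% of all genes) and none at least 1.5-fold higher, with a median of -0.53. The control array was the highest of the 4 for 15 of them (25.9% of all genes). The median was -0.30 after the loess correction and -0.11 against the control array of week 2. On the second probe sets of 6 genes the median was 0.032. For Nnmt and Asl the high-fat array of week 10 was the low one of the 4. Nnmt, which methylates nicotinamide, had 7640 and 5252 at week 2 against 5232 and 957 at week 10 (-2.45). Asl, the argininosuccinate lyase of the urea cycle, had 15314 and 17230 at week 2 against 16147 and 3985 at week 10 (-2.02). Cth, which makes cysteine, had 14595 and 6193 (-1.24). Arg1, the urea-forming arginase, had 30945 and 24277 at week 2 against 50214 and 23737 at week 10 (-1.08), so there the control array was the high one. Gnmt, a glycine methyltransferase, had 55023 and 28037 (-0.97).

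Among detoxifying enzymes, Gsta2, a glutathione transferase, had 1846 and 649.6 at week 2 against 4708 and 807 at week 10 (-2.54). Gstm3, of another class of the same enzymes, had 1556 and 685 at week 2 against 1308 and 3416 at week 10 (1.39, with 1.33 on a further probe set), and Gstm4 had 1127 and 2256. Of 27 drug-metabolizing P450 genes, 17 were lower and 10 higher, with a median of -0.23 that turned to 0.07 against the control array of week 2. Cyp2c54 was the lowest at -1.503 and Cyp3a44 the highest at 1.01, and that of Cyp3a44 turned to -0.15 against the control array of week 2.

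**Figure D4:**
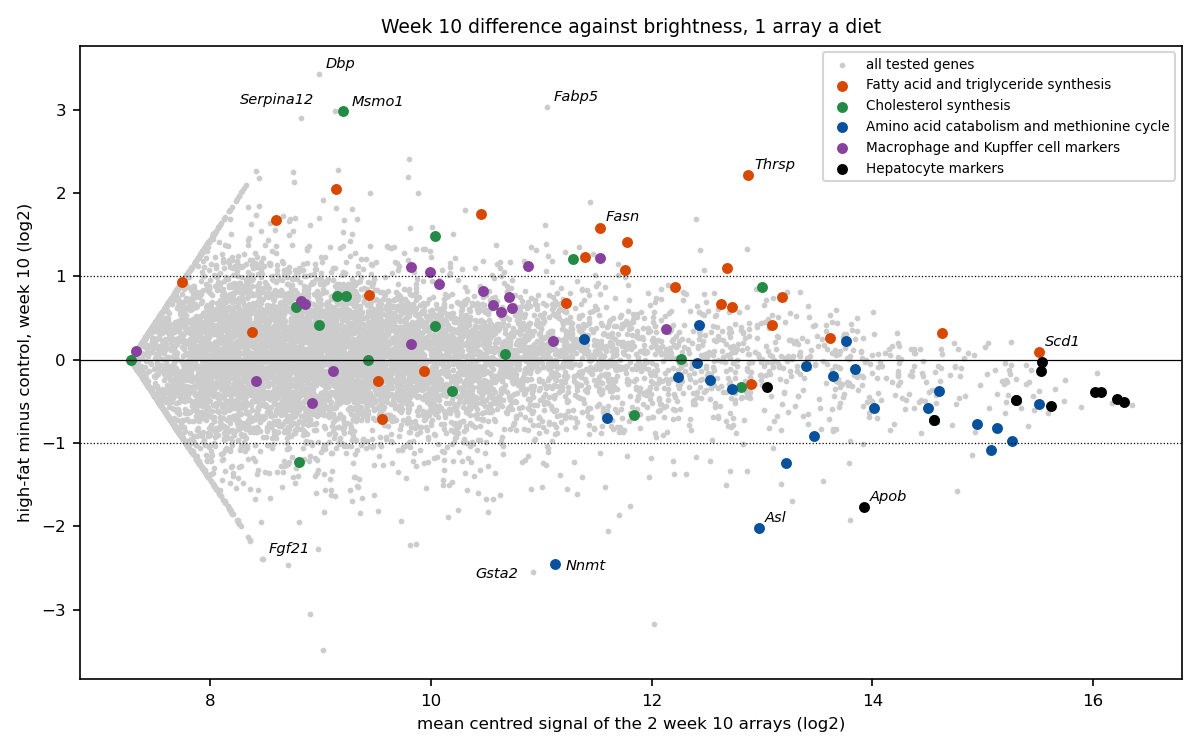
Week 10 difference (log2, y axis) of the 8846 tested genes against the mean centred signal of the week 10 arrays (log2, x axis), with members of 5 lists coloured and dotted lines at 2-fold. The diagonal edges at the left are genes at the floor on 1 array. Fatty acid synthesis genes lie mostly above 0 (21 of 25), and all 11 hepatocyte markers lie below it at the bright end.

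Clock genes differed widely in both directions. Their levels follow the hour of day, which the labels do not give, so diet and hour cannot be told apart. Dbp, a transcription factor of the clock output, was at the floor on both control arrays of the table, at 558 with the high-fat diet at week 2 and at 1665 at week 10, a difference of at least 3.42, with 2.58 on a further probe set. Nr1d1 (REV-ERB-alpha), a repressor in the clock loop, had 435 and 1399 at week 2 against 261 and 1258 at week 10 (2.27). Nr1d2 had 987 and 2175 at week 2 against 941 and 2139 at week 10 (1.18, with 1.03 on a further probe set). Arntl (BMAL1), the activator that these repress, had 925 and 377 at week 2 against 874 and 227 at week 10 (-1.94). Per1 had 597.0 on the control and was at the floor on the high-fat array, at least 3.84-fold lower, and Noct, a clock-controlled phosphatase, had 1326 and 523 (-1.34). The members differed between diets in the same direction at week 2 for Dbp, Nr1d1, Nr1d2, Arntl and Noct.

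Genes that glucocorticoids or metals induce were lower on the high-fat array for 14 of 15, and 9 were at least 1.5-fold lower (12.7% of all genes). The median was -0.71, and -0.55 against the control array of week 2. The high-fat array of week 10 was the lowest of the 4 for 13 (25.3% of all genes). Sgk1, a kinase of ion transport, had 1951 and 975 at week 2 against 1752 and 703 at week 10 (-1.32). The metallothioneins, which bind zinc and copper, were lower on their brightest probe sets, Mt2 with 10652 and 4219 (-1.34) and Mt1 with 27708 and 7332 (-1.92). Against the control array of week 2 the differences were smaller, -0.24 for Mt2 and -0.98 for Mt1. The brightest probe set of Mt1 can bind transcripts of related genes, and its other one gave 0.87. Zbtb16, a zinc finger repressor, likewise gave -1.02 and 0.73. Of the 7 genes with a further probe set, all pointed the same way in 2, and the median over second probe sets was 0.45.

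Macrophage and Kupffer cell markers were higher for 16 of 19, and 11 were at least 1.5-fold higher (13.5% of all genes), with a median of 0.65. Over the 4 markers with a second probe set, the median on those probe sets was -0.071. Cd5l, a protein secreted by tissue macrophages, had 3980 and 3748 at week 2 against 1942 and 4522 at week 10 (1.22). Clec4f, a lectin of Kupffer cells, had 2549 and 2217 at week 2 against 1277 and 2777 at week 10 (1.12). Adgre1 (F4/80) had 1100.1 and 724 at week 2 against 707 and 1467 at week 10 (1.05), and Tyrobp, a myeloid signalling adaptor, 614 and 1329 (1.11). The control array of week 10 was the low one, the lowest of the 4 for 12 of the 19 genes (22.4% of all genes). Against the control array of week 2 the median was 0.11. The summed signal of the markers was 29808 and 26144 at week 2 against 20823 and 32619 at week 10.

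Endothelial markers were higher for 9 of 12, with a median of 0.43, which was 0.07 against the control array of week 2. Their summed signals were 12285 and 9125 at week 2 against 9135 and 12512 at week 10. Lyve1, a receptor of sinusoidal endothelium, was at the floor on the control array of week 10 and at 646 on the high-fat array, at least 2.06 higher with 0.51 on a further probe set, but had 1340 and 801 at week 2. Cdh5 (VE-cadherin) gave 2.00 on its brightest and -0.31 on its further probe set, and Oit3, a liver sinusoid gene, had 211 and 658 (1.64). Tek, 1 of the 3 lower genes of the list, was the lowest at -0.73. The matrix gene Col3a1 had 468 and 933 (0.997, with -0.28 on a further probe set), in a stellate list of 21 genes with a median of 0.19. That median was -0.047 against the control array of week 2 and -0.20 on the second probe sets of 8 genes.

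**Figure D5:**
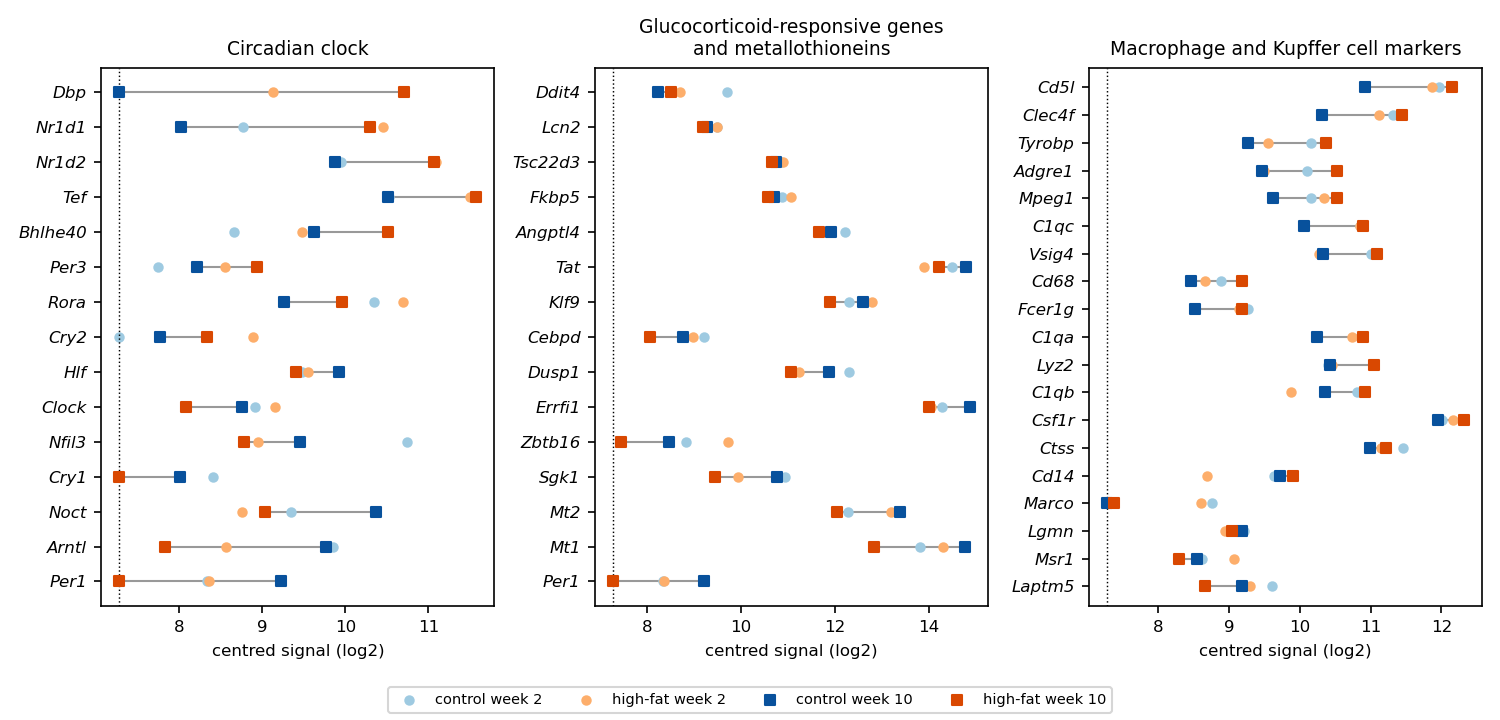
Centred signal (log2, x axis) of clock genes, of glucocorticoid- and metal-responsive genes and of macrophage markers on the 4 arrays of the smaller design, 1 point an array, with a line joining the week 10 arrays and a dotted line at the floor. For 13 of 15 glucocorticoid- and metal-responsive genes the high-fat array of week 10 is the leftmost point (25.3% of all genes). For 12 of 19 macrophage markers the control array of week 10 is the leftmost (22.4% of all genes).

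Among genes of no metabolic list above, Serpina12 (vaspin), a secreted protease inhibitor first described in fat tissue, had 230.3 and 254 at week 2 against 199.6 and 1582 at week 10 (2.99). Krt23, a keratin, was at the floor on both control arrays and at 555 and 748 on the high-fat arrays of weeks 2 and 10, at least 2.27 higher at week 10. Rgs16, a brake on G protein signalling that follows glucose in liver, had 2805 and 2328 at week 2 against 1823 and 4401 at week 10 (1.27, with 2.21 and 2.75 on further probe sets). Neat1, the RNA of nuclear paraspeckles, had 1731 and 3392 at week 2 against 416 and 1902 at week 10 (2.19). Serpinh1, a collagen chaperone, gave 1.23 and 1.53, and Rnf19b, a ubiquitin ligase, 1.46 and 1.22.

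Other large sizes had little behind them. Sfrp1, a WNT antagonist, had 692 and 650 at week 2 against 165 and 1234 at week 10 (2.90), but a further probe set gave 0.33. Prss2, a pancreatic trypsinogen, had 207.5 and 908 (2.13, with 0.08 on a further probe set), in a list of 6 pancreatic markers of which 5 were higher. Fen1, a DNA repair nuclease, had 197 and 937 (2.25), and Asb16 163 and 739.9 (2.18), neither with a further probe set above the floor at week 10.

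Among lower genes, Tmed5, a cargo protein of the early secretory path, had 4613 and 4821 at week 2 against 4465 and 1465 at week 10 (-1.61), with -1.56 on a further probe set. Tubb2a, a beta-tubulin, had 1994 and 2151 at week 2 against 3839 and 1647 at week 10 (-1.22, with -1.68 on a further probe set). Against the control array of week 2 its difference was -0.28. Tox4 was at the floor on the high-fat array, at least 3.29-fold lower with a log2 difference of -1.35 on a further probe set, and Nrip1, a corepressor of nuclear receptors, at least 2.93-fold lower with -2.48. Kdm6a, a histone demethylase on the X chromosome, was at least 4.50-fold lower with -0.99.

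Cdkn1a (p21), a cell cycle inhibitor, had 2583 and 1256 at week 2 against 2003 and 434 at week 10 (-2.21), with 1.46 at week 4. AY036118, an unnamed transcript, had 5203 and 2161 at week 2 against 12484 and 1384 at week 10 (-3.17). Rrs1, a ribosome assembly factor, had 977 and 177 (-2.46), and Wdtc1 had 1108 and 229.8 (-2.27). Nfic gave -3.05 with -0.20 on a further probe set, Ythdf1 -2.22 with -0.55 and -0.09, and Srrm1 -1.94 with 0.08 and 0.42. Zdhhc6 was at least 11.2-fold lower on a probe set open to related transcripts, with a log2 difference of 1.08 on the other. Atg2a, a lipid transfer protein of autophagy, had 816 on the control and was at the floor on the high-fat array, at least 5.25-fold lower.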

How the data were processed

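Liver RNA was hybridised to Affymetrix arrays, per the labels' protocols as biotin-labelled cRNA, 1 array a group. The authors deposited 1 linear signal intensity for each probe set, and how it was summarized is not stated in these sources. The trimmed mean of the deposited signals was 500.2 on both week 10 arrays, a value that the week 2 high-fat array shared. It was 800.4 on the control array of week 2. At week 4 it was 1079 for control and 1045 for high-fat. No test applies; sizes and counts are given, and the number of arrays limits the precision.

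The deposited intensities were put on the log2 scale, centred on 9922 probe sets above the floor on all 6 arrays, and floored at the pooled 40th percentile. After 64 control probe sets were left out, 20380 of 22626 had 1 gene symbol, giving 12393 genes. Gene symbols were taken from the annotation of the platform and brought up to date by gene identifier.

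The members and lists were chosen with earlier results of these data known. Genes were named if among the 12 largest differences per direction, the 15 per direction most steady over probe sets, the 6 largest bounds, the 6 largest of a list, or a set of lipid genes. Ranks among 4 arrays and the brightest 100 genes were added after the data were seen, as were the lists searched for motifs. Alternatives were other scalings, floors, filters and probe sets. The steps were tested on simulated data. Python 3.11.15, pandas 2.3.3 and statsmodels 0.14.6 (loess) were used.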

Additional observations from a re-analysis of the deposited data

Results flagged for a closer look

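Named genes whose diet difference was past 2-fold at week 10 and past 2-fold the other way at another week are given here, as log2 high-fat over control; with 1 array a group none of these was tested. At week 4, whose arrays are of another design, the diet difference was 1.46 for Cdkn1a, 1.52 for the heat shock gene Hspa1b and 1.09 for Wdtc1, where week 10 had -2.21, -1.46 and -2.27. Also at week 4 it was -2.22 for Msmo1, -1.63 for Fdft1 and -1.57 for Fdps, where week 10 had 2.99, 1.48 and 1.21. At week 2 the difference was -1.05 for Me1, -1.18 for Gstm3 and -1.43 for Prss2, where week 10 had 1.10, 1.39 and 2.13. No list median lay past 1.5-fold at week 10 and past 1.5-fold the other way at another week.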

How the results depend on the processing

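No paired analysis was possible because each group holds 1 array, and no array could be left out. Over 35 lists, 372 of 443 medians moved by less than the standard error over the list's members, a yardstick picked here because there are no replicates. Of 1422 values of named genes, 1268 lay within 1.5-fold of the value given, and the cause of the other values was not tested. Settings that changed only the filter could not move the value of a gene, so their values are among the 1268 by construction. On second probe sets, 33 named genes moved by 1.5-fold or more or turned in sign. The counts of genes past 2-fold upward and downward were 897 and 812 with the floor at the 20th percentile, 128 and 165 at the 60th, and 136 and 140 on second probe sets, where 3001 genes were tested. With the mean of all probe sets 203 were past 2-fold downward. The share of calls that were upward was 49.7%, and 44.2% after loess. The share of second probe sets in the same direction, 64.3% with an exact 95% binomial interval of 58.0% to 70.2% for counting error only, was 57.4% with the floor at the 20th and 70.3% at the 60th percentile. Signal near the floor limits every bound given.

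Medians that moved further or turned follow. With quantile normalization the median was -0.049 for apolipoproteins and lipoprotein assembly, -0.10 for insulin signalling, 0.16 for oxidative phosphorylation, 0.018 for cytosolic ribosomal proteins, -0.035 for P450 enzymes, -0.25 for amino acid catabolism and methionine cycle, 0.23 for acute phase and secreted plasma proteins, -0.045 for hepatocyte markers. With loess it was -0.17 for apolipoproteins and lipoprotein assembly, -0.023 for cytosolic ribosomal proteins, -0.044 for P450 enzymes, -0.30 for amino acid catabolism and methionine cycle, 0.21 for acute phase and secreted plasma proteins, -0.15 for hepatocyte markers. With the 4 arrays of the smaller table alone it was -0.10 for endoplasmic reticulum folding and stress, 0.022 for oxidative phosphorylation. With the floor at the 60th percentile it was -0.013 for lipid droplet, lipases and fatty acid uptake, -0.061 for insulin signalling. With no filter it was 0.00 for lipid droplet, lipases and fatty acid uptake, 0.00 for pancreatic acinar markers, -0.045 for male-predominant liver genes. With the mean of all probe sets it was 0.12 for cholesterol synthesis, -0.49 for peroxisomal and microsomal fatty acid oxidation, 0.087 for insulin signalling, -0.52 for glucocorticoid-responsive genes and metallothioneins, -0.076 for heat shock proteins. Without shared probe sets it was -0.61 for peroxisomal and microsomal fatty acid oxidation, -0.10 for insulin signalling, 0.52 for interferon response and antigen presentation.

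On second probe sets, which fewer genes have, the median was 1.05 for fatty acid and triglyceride synthesis, -0.36 for peroxisomal and microsomal fatty acid oxidation, 0.63 for lipid droplet, lipases and fatty acid uptake, 0.48 for apolipoproteins and lipoprotein assembly, 0.54 for gluconeogenesis, glycolysis and glycogen, 0.33 for insulin signalling, 0.45 for glucocorticoid-responsive genes and metallothioneins, -0.058 for immediate early genes, 0.38 for endoplasmic reticulum folding and stress, -0.035 for oxidative phosphorylation, -0.32 for cytosolic ribosomal proteins, -0.42 for P450 enzymes, -0.14 for conjugation enzymes, -0.37 for antioxidant defence, 0.032 for amino acid catabolism and methionine cycle, -0.044 for interferon response and antigen presentation, -0.071 for macrophage and Kupffer cell markers, -0.20 for stellate cell and matrix genes, 0.10 for endothelial markers, 0.00 for male-predominant liver genes.

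Against the control array of week 2, a choice made after the data were seen, the median was 0.98 for fatty acid and triglyceride synthesis, 0.70 for cholesterol synthesis, -0.064 for sterol sensing, uptake and efflux, -0.0024 for peroxisomal and microsomal fatty acid oxidation, 0.13 for apolipoproteins and lipoprotein assembly, 0.080 for bile acid synthesis and transport, -0.075 for circadian clock, -0.42 for heat shock proteins, -0.07 for oxidative phosphorylation, -0.17 for cytosolic ribosomal proteins, 0.073 for P450 enzymes, 0.019 for antioxidant defence, -0.11 for amino acid catabolism and methionine cycle, 0.46 for acute phase and secreted plasma proteins, 0.49 for interferon response and antigen presentation, 0.11 for macrophage and Kupffer cell markers, 0.56 for lymphocyte and neutrophil markers, -0.047 for stellate cell and matrix genes, 0.068 for endothelial markers, -0.47 for adipocyte markers, 0.70 for erythroid markers, 0.38 for hepatocyte markers.

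Among named genes past 2-fold, signs turned on second probe sets for Cdh5 (-0.31), Cyp51 (0.61), Mt1 (0.87), Srrm1 (0.42), Zbtb16 (0.73) and Zdhhc6 (1.08), and for Mt1, Zbtb16 and Zdhhc6 with the same values without shared probe sets. They turned with the 4 arrays of the smaller table for Srrm1 (0.38) and Zbtb16 (0.69), and against the control array of week 2 for Cyp3a44 (-0.15), Cyp51 (0.30) and Lyve1 (-1.05).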

Other observations

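Immediate early genes, which answer stimuli within minutes, were lower on the high-fat array for 12 of 18 (47.2% of all genes), with a median of -0.35. On the second probe sets of 4 genes the median was -0.058. Egr1 had signals, control first, of 2655 and 2547 at week 2 against 2190 and 592 at week 10 (log2 difference -1.89), Gadd45b 1103 and 382 at week 10 (-1.53, with -2.72 and -0.48 on further probe sets), and Jun 810 and 374 (-1.11). Junb differed the other way, with 377 and 831 at week 2 against 359 and 1154 at week 10 (1.69). Heat shock genes were lower for 12 of 16 (47.2% of all genes), with a median of -0.23 and Hspa1b at -1.46.

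Genes of interferon response and antigen presentation were higher for 23 of 30 (51.6% of all genes), with a median of 0.36 and none past 2-fold. The median was 0.49 against the control array of week 2, and -0.04 over the 10 genes with a second probe set. Oxidative phosphorylation genes had a median of 0.09 over 30 genes, and cytosolic ribosomal genes -0.10 over 19. The first turned to -0.071 against the control array of week 2 and -0.035 on second probe sets, and the second to 0.018 with quantile normalization. Xist, the RNA of the inactive X chromosome in female cells, had week 10 signals of 1772 and 2772 (0.65, with -0.37 on a further probe set). Its log2 signal was 10.79 or more on all 6 arrays, and the Y-linked Eif2s3y was at the floor on all 6. Nfil3 and Tef, named here after their values were seen, had differences of -0.68 and 1.07 (0.23 on a further probe set of Tef).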
